A study of Mus musculus with 7 samples.

Results

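The genes of the NF-κB subunits and of the inhibitors that NF-κB itself induces were examined for binding of RelA (p65) and IRF4 in mouse regulatory T (Treg) cells. The 7 genes were Rela, Rel, Relb, Nfkb1, Nfkb2, Nfkbia and Tnfaip3. Members are the peak summits that lie in 1 fixed window of the mm9 genome around each gene, between 110 and 200 kb long and 0.93 Mb in all. They number 25 of the 10739 summits in 3 chromatin immunoprecipitation sequencing (ChIP-seq) lists: 11 of 5630 for IRF4 in wild-type (WT) cells, 6 of 4312 for IRF4 in RelA-deficient (p65KO) cells and 8 of 797 for p65 in WT cells. The windows were selected by position around genes picked with the scores of these lists known, so counts and p65 scores are given as a description and no test was made.

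All cells were splenic Treg cells of the C57BL/6 strain. IRF4 was precipitated from 3 WT and 2 p65KO samples after 48 h under antibodies to CD3 and CD28, which stimulate the T cell receptor and a costimulatory receptor, and p65 from 2 WT samples after 30 min of PMA with ionomycin. The sources used here do not say how RelA was removed, in which cells, or how old the animals were. Each group came as 1 list that pools its samples, so no value has a replicate error, and read depth is unknown. Positions are mm9 and 1-based, and below and above mean lower and higher coordinates. Summit lists hold no expression values, so neither the cell type nor the loss of RelA was checked against marker genes. The score of a summit is the authors' −log10 significance of its peak. It was ranked within each list only, because the number of pooled samples differs between lists and so do the q cut-offs, 1e-06 for IRF4 and 0.05 for p65. Score ratios between the WT and p65KO IRF4 lists are also given, and the differing number of pooled samples limits them.

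NF-κB factors are dimers of subunits that share a DNA-binding Rel homology domain. RelA, c-Rel (Rel) and RelB carry transactivation domains, whereas p105 (Nfkb1) and p100 (Nfkb2) are precursors that are processed to the p50 and p52 subunits. IκBα (Nfkbia) holds dimers in the cytoplasm, is degraded when cells are stimulated and is resynthesised as a target of the pathway. A20 (Tnfaip3) is a ubiquitin-editing enzyme that dampens signalling upstream of IκB kinase. In Treg cells, NF-κB acts downstream of the T cell receptor, CD28 and TNF receptor family members, and IRF4 is a transcription factor of the effector Treg state.

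The RefSeq promoter table, which is on the GRCm38.p6 build, held 5 of the 7 genes, Nfkb2, Nfkbia, Tnfaip3, Rel and Rela; Nfkb1 and Relb were not matched. The 250 bases before the first listed start of each are shown because 4 of these genes had a p65 summit in their window and Rela had none. Capitals mark matches on either strand to the κB consensus, which is GGG, a purine, any 2 bases, 2 pyrimidines and CC. These coordinates are GRCm38.p6, and the summits below are mm9, so the position of a summit relative to these bases was not determined.
Nfkbia, chr12:55492648-55492897, minus strand: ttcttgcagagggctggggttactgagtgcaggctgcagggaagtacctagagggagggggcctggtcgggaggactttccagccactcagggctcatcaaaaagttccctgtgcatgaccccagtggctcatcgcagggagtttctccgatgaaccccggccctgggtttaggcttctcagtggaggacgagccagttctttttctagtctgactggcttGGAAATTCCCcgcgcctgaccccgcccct
Tnfaip3, chr10:19015411-19015660, minus strand: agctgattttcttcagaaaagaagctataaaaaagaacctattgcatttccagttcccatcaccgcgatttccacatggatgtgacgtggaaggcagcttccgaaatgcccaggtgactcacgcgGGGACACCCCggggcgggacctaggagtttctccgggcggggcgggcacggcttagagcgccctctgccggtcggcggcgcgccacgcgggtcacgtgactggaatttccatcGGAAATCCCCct
Nfkb2, chr19:46304487-46304736, plus strand: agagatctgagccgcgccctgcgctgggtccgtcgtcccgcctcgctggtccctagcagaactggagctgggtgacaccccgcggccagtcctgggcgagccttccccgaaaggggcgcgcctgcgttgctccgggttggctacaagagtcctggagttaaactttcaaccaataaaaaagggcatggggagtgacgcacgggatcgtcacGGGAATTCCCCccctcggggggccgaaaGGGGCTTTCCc
Rel, chr11:23770970-23771219, minus strand: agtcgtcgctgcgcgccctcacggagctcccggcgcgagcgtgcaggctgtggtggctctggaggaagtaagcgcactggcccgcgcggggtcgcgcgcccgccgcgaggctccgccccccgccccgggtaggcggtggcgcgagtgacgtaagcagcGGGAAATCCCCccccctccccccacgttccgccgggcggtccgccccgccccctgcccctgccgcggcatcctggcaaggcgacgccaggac
Rela, chr19:5637291-5637540, plus strand: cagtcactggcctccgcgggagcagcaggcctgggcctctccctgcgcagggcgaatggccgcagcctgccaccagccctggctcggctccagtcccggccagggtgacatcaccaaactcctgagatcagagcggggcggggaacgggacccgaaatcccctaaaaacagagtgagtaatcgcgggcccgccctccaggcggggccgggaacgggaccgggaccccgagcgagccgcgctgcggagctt

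A κB match was present in 4 of these 5 sequences, Nfkbia, Tnfaip3, Nfkb2 and Rel, and none was found in that of Rela. Among the first listed promoters of 27025 genes, 7.01% held a match in the same 250 bases. Nothing is read from this contrast, since the genes were picked as NF-κB pathway genes with p65 scores known. The Nfkbia match lay 29 to 20 bases before the start. Tnfaip3 had one match 12 to 3 bases and another 125 to 116 bases before the start. Nfkb2 had 3 matches, of which a pair overlapped at 39 to 29 bases before the start and the other ended next to the start, at 11 to 2 bases. In Rel, 2 overlapping matches lay 92 to 82 bases before the start. The AP-1 motif TGANTCA, searched on both strands, occurred in the Tnfaip3 sequence 136 to 130 bases before the start, next to the farther κB match without overlapping it, and in 6.87% of all promoters. The interferon-stimulated response element, which IRF factors bind and which was searched on both strands as GAAA repeated after any 2 bases, was in none of the 5 and in 3.04% of all. The base composition of these sequences was not compared with that of the other promoters. Nfkb2 and Tnfaip3 had further listed starts, which are not shown. Before starts 2 and 3 of Nfkb2 there was 1 κB match each, and before start 2 of Tnfaip3 there were 0.

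The p65 list had a summit in 6 of the 7 windows, those of Nfkb1, Nfkb2, Nfkbia, Tnfaip3, Rel and Relb. No p65 summit lay in the window of Rela. The 3 IRF4-bearing windows, Nfkb1, Tnfaip3 and Rel, were the same in both IRF4 lists, and no IRF4 summit of either genotype lay in the windows of Nfkb2, Nfkbia, Relb or Rela. This depended on the window edges and on the cut-off. Windows wider by 50 kb on each side added 1 IRF4 summit of each genotype at Nfkbia and 1 in WT alone at Rela, and above the median score of each list the Rel window kept 1 WT summit and no p65KO summit. Cutting the spanned 2555 Mb of placed chromosomes into tiles of 133 kb, the mean window length, gave a p65 summit outside dense p65 regions in 1.39% of 19224 tiles. Dense regions are runs of 3 or more p65 summits spaced by 50 kb or less, and no member lay in one. A WT IRF4 summit occurred in 17.6% of the tiles and a p65KO IRF4 summit in 15.0%. Tiles include sequence without genes, and nothing is read from the p65 count, since the loci were picked with these lists known. Density in the windows was 8.60 summits per Mb in the p65 list, 11.8 in the WT IRF4 list and 6.45 in the p65KO IRF4 list, against 0.120 outside dense regions (0.237 with them), 2.17 and 1.67 per Mb over the placed chromosomes.

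**Figure D1:**
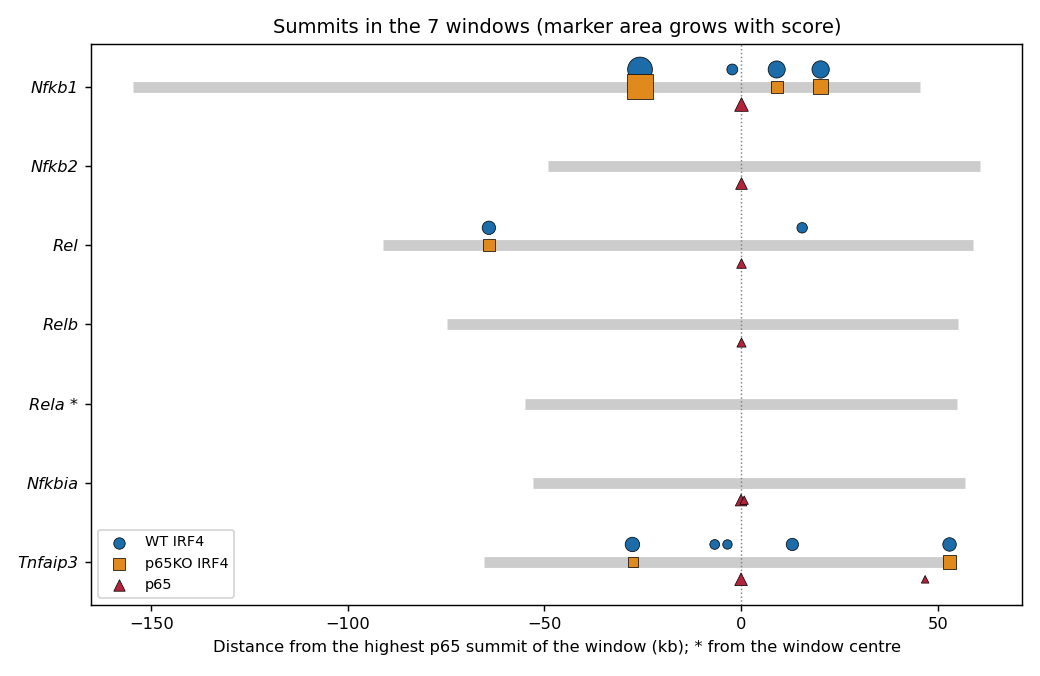
Summits of the 3 lists in the 7 windows, by distance in kb from the highest p65 summit of each window (for Rela, from the window centre). Grey bars are the windows, blue circles WT IRF4, orange squares p65KO IRF4 and red triangles p65, with marker area growing with the score; p65 is present in 6 windows and IRF4 in 3, and no IRF4 marker stands on a p65 marker.

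Among the genes of the transactivating subunits, Rela had no summit of any list between 5.59 and 5.70 Mb of chromosome 19. The nearest WT IRF4 summit lay 4.4 kb beyond the upper edge of its window, with an IRF4 score of 21.3, the nearest p65KO IRF4 summit 87.4 kb beyond, and the nearest p65 summit 2215.1 kb beyond. The window is 110 kb long and Rela itself 10.7 kb in the RefSeq table, where Kat5 and Sipa1 are its neighbours. Thus the gene that encodes the precipitated factor was the one locus of the 7 without p65 at this cut-off.

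Relb, which encodes the activating subunit of the non-canonical pathway, had a single p65 summit at 20214805 on chromosome 7 (window 20.14 to 20.27 Mb). Its p65 score was 12.7, rank 297 of 797, above the list median of 9.61. IRF4 was distant, with the nearest WT summit 285.0 kb and the nearest p65KO summit 285.2 kb away.

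Rel, the gene of c-Rel, lay in the window of chromosome 11 from 23.58 to 23.73 Mb with 1 p65 and 2 WT IRF4 summits. The p65 summit at 23671021 scored 14.8 and ranked 234. A WT IRF4 summit at 23606887, 64.1 kb away, scored 39.3 in WT and 23.3 at its p65KO partner, 32 bp off. The other WT summit, at 23686564 and 15.5 kb from p65, scored 19.7 and had no p65KO summit closer than 79.7 kb. So the IRF4 site nearer to p65 was called in WT cells alone, and the farther one in both genotypes.

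The 2 precursor genes differed in IRF4. In the Nfkb1 window, chromosome 3 from 135.20 to 135.40 Mb, the p65 summit at 135354535 had the highest p65 score of all members, 40.8, which ranked 70. WT IRF4 summits lay on both sides of it, 2228 bp below at 135352307, 25.7 kb below, 9.06 kb above and 20.2 kb above. The strongest of these, at 135328842, scored 159.9 in WT (rank 55 of 5630) and 165.3 in p65KO cells (rank 50 of 4312), with summits 17 bp apart. It was the highest IRF4 summit of the 7 loci in both genotypes, and its place in the list was nearly the same in each. The summit at 135374775 scored 72.8 in WT and 53.0 in p65KO, and that at 135363597 scored 70.6 in WT and 31.5 in p65KO, ranks 637 and 1800. The one nearest to p65 scored 22.2 in WT and had no p65KO summit closer than 11.3 kb. Outside the window the next WT IRF4 summit was 13.7 kb beyond the upper edge, and the next p65 summit on the chromosome was 13421036 bp from that of Nfkb1.

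Nfkb2 had p65 and no IRF4. Its p65 summit at 46379196 on chromosome 19 (window 46.33 to 46.44 Mb) scored 27.3 and ranked 120. The nearest IRF4 summits, 302.2 kb away in both lists, scored 46.3 in WT and 21.4 in p65KO cells. This was the largest distance from p65 to IRF4 among the 8 p65 summits.

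For the inhibitors, Nfkbia had a pair of p65 summits 796 bp apart, at 56592964 and 56593760 on chromosome 12 (window 56.54 to 56.65 Mb). Of the other windows only that of Tnfaip3 held more than 1 p65 summit, and those lay 46.8 kb apart. The first Nfkbia summit scored 26.2 and ranked 126. The second scored 8.62, below the list median of 9.61, and ranked 454. For scale, the whole gene is 3239 bp long in RefSeq. The nearest IRF4 summits were 98.9 kb from the first, below the window, and scored 20.7 in the WT list and 25.2 in the p65KO list.

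Tnfaip3 had the most summits, with 2 for p65, 5 for WT IRF4 and 2 for p65KO IRF4 on chromosome 10 from 18.67 to 18.79 Mb. The p65 summit at 18735268 scored 33.4 and ranked 97, and the one at 18782093, 46.8 kb away, scored 5.21 and ranked 663. WT IRF4 summits stood 27.6, 6.70 and 3.45 kb below the stronger p65 summit and 13.0 kb above it, and another stood 6.20 kb above the weaker one. The outer IRF4 summits were called in both genotypes. At 18707636 the score was 47.5 in WT and 18.6 in p65KO cells, ranks 1225 and 3254, and at 18788294 it was 39.8 and 41.0. The inner 3, at 18728573, 18731814 and 18748317, scored 15.8, 13.8 and 31.2 in WT, and the p65KO list had no summit within 20 kb of any of them. The upper pair was the member nearest to a window edge, 1.71 kb inside it, and the nearest IRF4 summits outside this window were 32.6 kb below it and 132.3 kb above it in both lists.

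**Figure D2:**
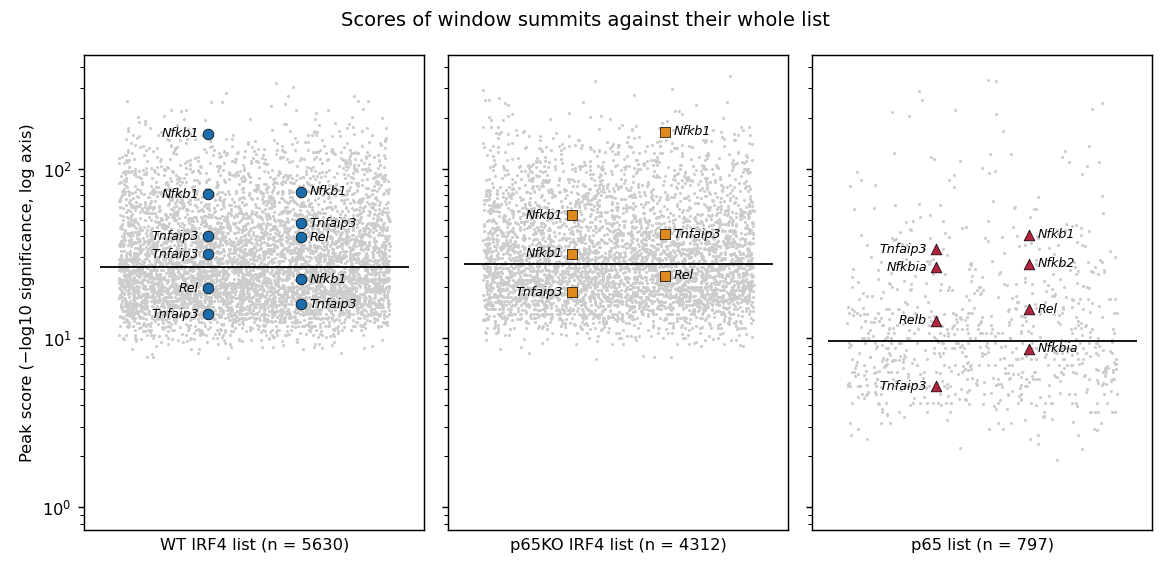
Peak scores (−log10 significance, log axis) of the window summits, coloured by list and labelled by gene, over all summits of their own list in grey, with a line at the list median. The 2 highest marked points of the IRF4 panels are the Nfkb1 summit at 159.9 in WT and 165.3 in p65KO; p65 members range from 5.21 to 40.8 against a list median of 9.61.

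Across the 7 loci, p65 and IRF4 did not share a position. None of the 8 p65 summits had an IRF4 summit of either genotype within 200 bp, which allows a share of up to 37.5%, against 33.4% of the whole p65 list. The whole list includes dense regions and unplaced sequence, where no member lies, and outside these the share was 97 of 307. The 8 summits come from only 6 windows, picked with these lists known, so the bound cannot decide whether the loci differ. None of the 11 WT IRF4 summits (up to 27.3%) and none of the 6 p65KO IRF4 summits (up to 50%) had a p65 summit within 200 bp, against 4.0% and 4.15% of their lists. These counts restate the result for the p65 summits, since no p65 summit outside a window lay closer than 605.4 kb to its edge. At such small list shares a count of 0 also says little. At the scores of the 4 strongest members most p65 sites carried IRF4, and at lower scores fewer did. On placed chromosomes and away from dense regions, 64 p65 summits scored at least as high as the stronger Nfkbia summit, and 59 of them had an IRF4 summit within 1 kb. The 5 without were those of Nfkb1, Tnfaip3, Nfkb2 and Nfkbia and 1 elsewhere. Among those that scored lower, down to the Rel summit, it was 17 of 35, from there down to the Relb summit 9 of 24, and below Relb 24 of 184, where the weaker Nfkbia and Tnfaip3 summits belong. Over all 307 it was 109. The score cut-offs of this comparison are the members' own p65 scores, and the loci were picked with these lists known. Nothing is therefore read from the members being 4 of the 5 without IRF4. Intervals and limits here cover counting error only, and p65 and IRF4 were mapped after different stimulation.

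Distance to IRF4 varied widely among the p65 members. The nearest IRF4 summit was 2.23 kb away at Nfkb1, 3.45 kb and 6.19 kb at the Tnfaip3 summits, 15.5 kb at Rel, 98.9 and 99.7 kb at Nfkbia, 285.0 kb at Relb and 302.2 kb at Nfkb2. Their median was 57.2 kb. The other 190 p65 summits outside dense regions and without IRF4 within 1 kb had a median of 151 kb (interquartile range 32.1 to 537). They ranged from 1.03 to 4039 kb, and 4 of the 8 members, those of Nfkb1, Tnfaip3 and Rel, stood below their lower quartile.

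**Figure D3:**
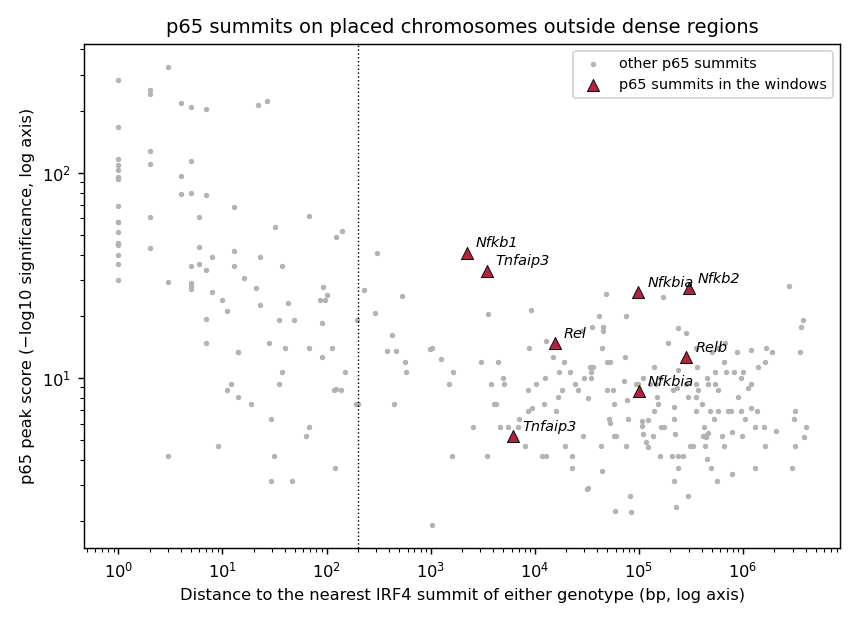
Score of each of the 307 p65 summits on placed chromosomes outside dense regions (−log10 significance) against its distance in bp to the nearest IRF4 summit of either genotype, on log axes, with a dotted line at 200 bp and distances of 0 drawn at 1 bp. The 8 labelled members, red triangles, all lie to the right of the line, between 2228 bp at Nfkb1 and 302188 bp at Nfkb2.

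IRF4 sites at these loci were called in fewer places without RelA, 6 against 11, from a list that is also the shorter, 4312 against 5630. In the p65KO list, 6 of the 11 WT IRF4 summits had a partner within 200 bp (54.5%, exact 95% interval 23.4 to 83.3), against 64.4% of the WT list. All 6 p65KO summits had a WT partner (100%, 54.1 to 100), against 84.1% of the p65KO list. Both intervals include the share of the list, but they are wide and their summits cluster in 3 windows. They cannot show whether the loci differ from the list or resemble it. The 5 WT summits without a partner were 1 of 4 at Nfkb1, 3 of 5 at Tnfaip3 and 1 of 2 at Rel. The Tnfaip3 number rests on the longer WT list: with the WT list reduced to its 4312 highest summits, the weakest 2 drop out and 1 of 3 lacks a partner there, while Nfkb1 and Rel keep 1 of 4 and 1 of 2.

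Those 5 were also the lowest-scoring WT summits of the windows, with WT scores of 13.8 to 31.2 against 39.3 to 159.9 for the 6 with a partner. Over the whole WT list the share of summits with a partner was also lower at such scores. Among WT summits scoring within 10% of the 2 weakest Tnfaip3 summits, 32.7% of 715 and 28.5% of 520 had a p65KO partner. For the Tnfaip3 summit at 18748317 the share was 74.5% of 611, for the Nfkb1 summit at 135352307 it was 52.2% of 739, and for the unpaired Rel summit 46.5% of 763. From the shares of their score deciles in the whole list, 7.79 of the 11 would have had a partner, and 6 did. Absence from the p65KO list means only that no peak passed q = 1e-06, since signal below it is not listed.

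In each of the 3 loci the WT IRF4 summit nearest to the highest p65 summit was called in WT alone, at 2.23 kb for Nfkb1, 3.45 kb for Tnfaip3 and 15.5 kb for Rel. This pattern was noticed in the values and has no test. With the WT list reduced to its 4312 highest summits, the nearest at Tnfaip3 was the one 13.0 kb away, also without a partner. The weaker Tnfaip3 p65 summit went the other way, as its nearest WT IRF4 summit, 6.20 kb off, had a p65KO partner. In the lists as deposited, the 3 nearest summits were also the lowest-scoring WT IRF4 summits of their windows, at 22.2, 13.8 and 19.7. Low score and nearness to p65 therefore cannot be told apart at these loci. For comparison, WT IRF4 summits elsewhere in the genome that lay 0.2 to 5 kb from a p65 summit outside dense regions numbered 25. A p65KO partner was found for 11 of these (44.0%, 24.4 to 65.1), and 59.3% would follow from their score deciles. Between 0.2 and 20 kb the numbers were 40 of 63 (63.5%, 50.4 to 75.3) and 65.8%. Both ranges were chosen after the values were seen, and the intervals are too wide to decide on a link with distance to p65.

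Where a site was called in both genotypes, its summits lay close together. The 6 pairs were 8 to 88 bp apart with a median of 24.5 bp, against a median of 17.0 bp (interquartile range 7 to 35) over all 3625 pairs. Nearly equal scores were found at the strongest Nfkb1 site and the upper Tnfaip3 site, where the p65KO score was 1.03 times the WT score in each. The p65KO score was the lower in the other 4, at 0.728 and 0.446 times the WT score at Nfkb1, 0.594 times at Rel and 0.392 times at the lower Tnfaip3 site. Over all pairs the median ratio was 0.925 (interquartile range 0.706 to 1.19). Of all pairs, 2.59% had a lower ratio than the lower Tnfaip3 site, 4.50% a lower one than Nfkb1 at 135363597 and 14.6% a lower one than Rel. The share was 27.1% for Nfkb1 at 135374775, 60.9% for the upper Tnfaip3 site and 61.2% for the strongest Nfkb1 site. Expressed as the place in each list, the lower Tnfaip3 site stood at percentile 78.3 in WT and 24.6 in p65KO, Rel at 70.7 and 40.4, and Nfkb1 at 135363597 at 88.7 and 58.3. Nfkb1 at 135374775 stood at 89.4 and 80.1, the upper Tnfaip3 site at 71.2 and 71.1, and the strongest Nfkb1 site at 99.0 and 98.9. The median change in percentile from WT to p65KO was -19.8 over the 6 pairs and -3.59 over all pairs. These medians, and the shares of pairs with a lower ratio, are not matched for starting place, as the 6 pairs all stood at WT percentile 70.7 or higher. With IRF4 lists of equal length the median over the 6 pairs was -13.8, and that over all pairs was not computed. The number of samples (3 against 2) moves with genotype, and its part in these scores was not tested.

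**Figure D4:**
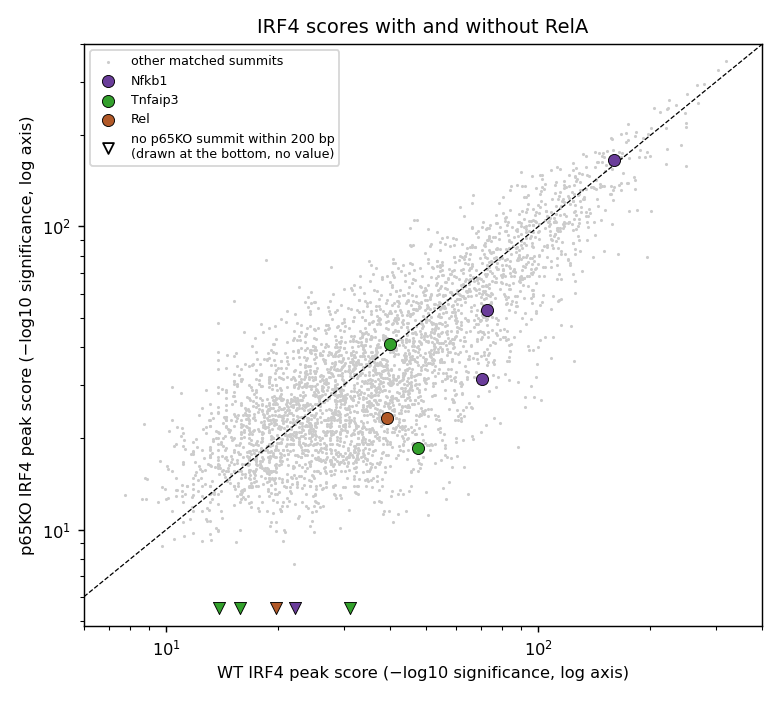
IRF4 peak score in p65KO against WT (−log10 significance, log axes) at all 3625 matched summits in grey and at those of Nfkb1, Tnfaip3 and Rel in colour, with a dashed line of equality. Of the 6 coloured circles 2 lie at the line and 4 below it; triangles along the bottom edge mark the 5 WT summits with no p65KO summit within 200 bp, at their WT score only.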

How the data were processed

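Each group has 1 file of 1 bp peak summits, which the authors deposited and which the description of each of its samples names. The submitters' processing notes name Subread, featureCounts, MACS2 2.1.0 and the mm9 build. The deposited score is a −log10 significance value per peak; no source used here states whether of p or q, or how samples were pooled. Per the peak names in the deposited files, no input library was subtracted, and the q cut-offs come from the same names.

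Summits were taken by their 1-based position in the windows, ranked within their list and matched within 200 bp. The tools were matplotlib 3.10.9, scipy 1.17.1, pandas 2.3.3, numpy 2.4.6 and Python 3.11.15. Intervals are exact Clopper-Pearson, and the limit for a count of 0 is 3 counts of the total. The matching was tested on simulated data. No mm9 genome or annotation was used here, so the windows were not checked against gene models, and other pathway genes were not placed. The members, windows and lists were chosen with earlier results of these data known. Named summits were every p65 summit of a window and its IRF4 summits. The ranges of 5 and 20 kb around p65 and the 10% score range were chosen after the values were seen.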

Additional observations from a re-analysis of the deposited data

How the results depend on the processing

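The p65 ranks used all 797 summits. Among the 307 outside unplaced sequence and dense regions, the stronger summits ranked 40 at Nfkb1, 51 at Tnfaip3, 59 at Nfkb2 and 64 at Nfkbia, and the weaker Nfkbia summit 189, each a lower place relative to the list. Keeping summits above the median score of each list left 7 WT IRF4 summits in the windows in place of 11. The other 38 recomputed values over all windows, and of the p65 ranks, stayed within 1.5 times the count (totals), the counting interval (shares and ranks) or the spread between pairs (percentiles). The limits for shares and percentiles are wide, as they rest on 6 to 11 summits and on 6 pairs. Staying within them therefore says little about stability. A rank in a complete list has no counting error, so its interval served only as a yardstick. Matching within 100 bp to 1 kb left 6 of 11 WT summits matched, and with IRF4 lists of equal length it was 6 of 9. Within 5 kb, 2 of 8 p65 summits had an IRF4 summit. The median change in percentile was -13.8 with lists of equal length. Windows widened by 50 kb held 15, 8 and 8 summits, and narrowed by 20 kb 10, 5 and 7. Of 98 recomputed counts in single windows, 12 changed by more than 1.5 times or to or from 0. Above the median score, WT IRF4 counts were 3 at Tnfaip3 and 1 at Rel, p65KO IRF4 counts 1 and 0, and p65 counts 1 at Tnfaip3 and at Nfkbia. Narrowing left 1 p65KO IRF4 and 1 p65 summit at Tnfaip3, and equal length 3 WT IRF4 summits there. Widening added 1 IRF4 summit at Nfkbia in each genotype and 1 at Rela in WT. Leaving out a replicate was not run, because each list pools its samples. No paired analysis was possible because the lists carry no replicate numbers and no result comes from a test.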
